A study of Mus musculus with 6 samples.

Results

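The 10 genes described here carry the uptake of cystine, the synthesis of glutathione and the control of ferroptosis: Slc7a11, Slc3a2, Gclc, Gclm, Gss, Gpx4, Aifm2, Nqo1, Acsl4 and Sat1. They were taken by symbol from a table of 23420 genes, and all 10 were among the 13044 genes that passed the filter on low counts. RNA sequencing was run on mouse embryonic fibroblasts (MEFs) of a mixed 129/Sv-C57BL/6 background, as 3 lines. Cells of both groups carried the adenoviral oncogene E1A and the oncogenic Ras allele HrasG12V, and both grew in 5% oxygen for 24 h before harvest. In the sgp53 group (3 libraries) a single guide RNA, sgp53(1), was directed at the p53 gene Trp53; its cells are labelled p53 null in lines 1 and 3 and functionally inactive in line 2. In the sgNTC group (3 libraries) the same lines carried sgNTC and are labelled p53 wild-type. The question put to these genes was whether their mRNA differed with loss of p53 in transformed cells. The labels do not say that the lines came from separate embryos, so each p-value measures the spread between 3 lines.

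Ferroptosis is a form of cell death driven by iron-dependent peroxidation of polyunsaturated membrane lipids. Cells hold it back by importing cystine through system xc-, a heterodimer of Slc7a11 and Slc3a2, reducing it to cysteine and building glutathione, which the lipid peroxidase Gpx4 spends to detoxify lipid peroxides. p53 has been described to repress Slc7a11 and to induce Sat1, and the factors NRF2 and ATF4 are known activators of several of these genes.

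The promoters of Slc7a11, Gclm and Sat1 are shown. Slc7a11 and Sat1 are described above as p53-regulated, and Slc7a11 and Gclm were the members with a motif match. Each is the sense strand of the 250 bases before the start given for the gene in the RefSeq promoter table (build GRCm38.p6), in lower case with motif matches in capitals. For Slc7a11 that start lies inside the full RefSeq span of the gene, whose outer end is farther upstream, and for Gclm the full span begins within the printed window.
Slc7a11 (chr3:50443614-50443863, minus strand): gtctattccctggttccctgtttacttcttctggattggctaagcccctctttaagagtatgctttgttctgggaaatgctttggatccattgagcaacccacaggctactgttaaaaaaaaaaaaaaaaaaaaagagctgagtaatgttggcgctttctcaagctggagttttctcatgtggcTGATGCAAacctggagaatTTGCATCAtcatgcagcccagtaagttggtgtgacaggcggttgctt
Gclm (chr3:122245307-122245556, plus strand): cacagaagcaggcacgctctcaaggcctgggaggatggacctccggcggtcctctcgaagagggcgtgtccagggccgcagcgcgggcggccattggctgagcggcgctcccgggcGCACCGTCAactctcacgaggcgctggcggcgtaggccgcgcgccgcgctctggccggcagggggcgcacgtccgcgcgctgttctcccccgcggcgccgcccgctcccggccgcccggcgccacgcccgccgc
Sat1 (chrX:155216450-155216699, minus strand): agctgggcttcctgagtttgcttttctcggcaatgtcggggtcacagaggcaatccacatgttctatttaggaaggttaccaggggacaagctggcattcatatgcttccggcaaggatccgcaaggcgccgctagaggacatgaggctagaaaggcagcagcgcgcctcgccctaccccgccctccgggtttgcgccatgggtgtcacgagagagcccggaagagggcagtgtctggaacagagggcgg

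In Slc7a11 the capitals mark TGATGCAA and, read on the opposite strand, TTGCATCA, both matches to TGATGNAA, the core of the element bound by ATF4 and its C/EBP partners. In Gclm they mark GCACCGTCA, an opposite-strand match to TGACNNNGC, the core of the antioxidant response element bound by NRF2. Both strands of the 300 bases around each start were searched, and none of these matches overlapped another. Of 32851 RefSeq promoters of that length, 3.97% held TGATGNAA, 12.4% held TGACNNNGC and 8.36% held a single copy of the p53 consensus decamer. RefSeq promoters were found for 9 of the 10 genes, and Gclc was the gene without an entry. The first motif matched Slc7a11 alone among these, the next matched Gclm alone, and the p53 decamer matched none. A match describes letters in this window and not a bound site.

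The targeted gene and its best-known targets fell in the sgp53 group. Trp53 was at 71.1, 72.0 and 113 CPM (counts scaled to a common library total by TMM) in sgp53 lines 1, 2 and 3, against 206, 277 and 253 CPM in sgNTC lines 1, 2 and 3, a log2 fold change of -1.52 with an edgeR adjusted p of 0.0168. Cdkn1a, the p21 cell cycle inhibitor, fell by 3.01 on the log2 scale and Mdm2, the ubiquitin ligase for p53, fell by 2.73, with edgeR adjusted p = 0.000509 and 0.000767. Without sgp53 line 1, sgp53 line 2 or sgNTC line 3 the edgeR adjusted p of Trp53 was 0.0679, 0.0507 and 0.0721. The fibroblast markers Vim (2502 to 3001 CPM in sgp53, 2754 to 3354 CPM in sgNTC) and Fn1 were abundant, while Col1a1 ranged from 221 to 744 CPM in sgp53 and from 5.18 to 12.6 CPM in sgNTC. The summed level of the 4 measured epithelial markers of 5 was 88.7 to 132 CPM in sgp53 and 259 to 646 CPM in sgNTC, most of it Krt18, and Krt14 was at or near 0 throughout. The 8 fibroblast markers together were at 6889 to 9358 CPM in sgp53 and 5536 to 6607 CPM in sgNTC. Vim and Fn1 made up most of these sums. The log2 fold change was above 0 for 7 of the 8 and below 0 for 1, with a median of 2.71. Col1a2 was at 182 to 787 CPM in sgp53 and 6.30 to 18.3 CPM in sgNTC. In the same order Pdgfrb was at 53.5 to 124 and 12.0 to 33.8 CPM. Pdgfra was at 21.1 to 131 and 12.9 to 29.7 CPM, S100a4 at 8.57 to 99.4 and 1.74 to 2.91 CPM. Thy1 was at 3.36 to 53.9 and 0.240 to 4.06 CPM. Of 5 immune markers, Cd3e and Adgre1 were at 0 in all 6 libraries and Cd68 alone passed the filter, at 3.51 to 3.92 CPM in sgp53 and 7.42 to 10.4 CPM in sgNTC. Of 4 endothelial markers Kdr alone passed, at no more than 2.28 CPM in any library. The part of these markers in the values given here was not tested, and in bulk RNA fewer cells of a type and less RNA per cell cannot be told apart. The library of sgp53 line 3 held 3217 CPM of the ribosomal RNA gene Rn45s, scaled here by its plain total, against 639 to 881 CPM in the other libraries. Libraries had 27503577 to 35860866 counts, and the counting error of a member in a library lay between 0.994% and 9.58%.

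None of the 10 genes passed the threshold of an edgeR adjusted p under 0.05, which 6.45% of all genes tested passed. At an unadjusted p under 0.05 the count was 1 of 10, against 29.0% of all genes, and that gene was Slc3a2. DESeq2 also called Slc3a2 alone (1 of 10, against 18.1% of all genes), and limma-voom called 0 of 10 (5.35% of all genes). Under a replicate block for the line, 0 of 10 passed in edgeR (2.38% of all genes). The log2 fold changes of sgp53 over sgNTC ran from -0.32 for Nqo1 to 0.36 for Slc7a11, with 6 positive and 4 negative. Their median was 0.11, beside -0.01 over all genes tested, and their median size without regard to sign was 0.17, beside 0.19. Of the 841 genes called by edgeR, 128 had a log2 fold change smaller in size than that of Slc7a11, the smallest being 0.21.

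**Figure D1:**
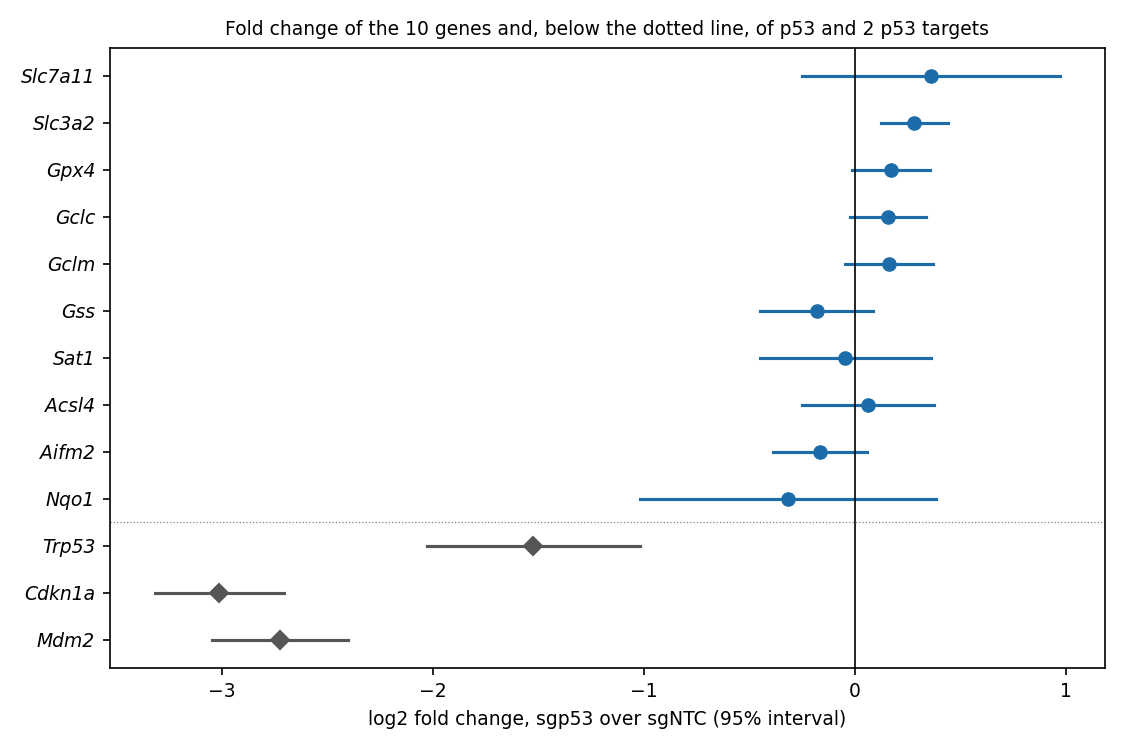
Log2 fold change of sgp53 over sgNTC for each of the 10 genes and, under the dotted line, for Trp53, Cdkn1a and Mdm2, with bars for the 95% interval of the edgeR fit (3 libraries a group). The interval of Slc3a2 (0.12 to 0.44) lies above 0 and those of the other 9 members include 0, and none of the 10 passed an adjusted p under 0.05.

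Cystine uptake was examined first. Slc7a11, the light chain that carries out the cystine and glutamate exchange, was at 21.2, 24.4 and 12.0 CPM in sgp53 lines 1, 2 and 3, against 16.2, 14.2 and 14.7 CPM in the sgNTC lines in the same order. The sgp53 libraries of lines 1 and 2 were the 2 highest of the 6 and that of line 3 was the lowest, so the groups overlapped. The means were 19.2 ± 6.43 CPM in sgp53 and 15.0 ± 1.03 CPM in sgNTC (SD, n = 3 each). The fitted log2 fold change was 0.36 (SE 0.25) with an edgeR adjusted p of 0.391. The 95% interval of the fold ran from 0.839 to 1.96, on both sides of equality. The log2 fold change was 0.61 without sgp53 line 3 (edgeR adjusted p = 0.0630) and 0.15 without sgp53 line 2.

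Slc3a2, the heavy chain (4F2hc, also called CD98) that brings this and other amino acid transporters to the plasma membrane, came nearest to a call. Its level was 247, 282 and 253 CPM in sgp53 lines 1, 2 and 3, against 222, 209 and 212 CPM in sgNTC lines 1, 2 and 3. All 3 sgp53 libraries lay above all 3 sgNTC libraries. The means were 261 ± 18.4 CPM in sgp53 and 214 ± 6.89 CPM in sgNTC (SD, n = 3 each), a 1.22-fold difference with a 95% interval of 1.09 to 1.36. The log2 fold change was 0.28 (SE 0.07), with an edgeR adjusted p of 0.0567, and 0.118 with the line as a block. DESeq2 gave 0.29 with an adjusted p of 0.00156, past the threshold, and limma-voom an adjusted p of 0.0620. Groups that did not overlap were found for 36.8% of all genes tested and for 3 of the 10 members (30%), namely Slc3a2, Gpx4 and Gclm.

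The ratio of Slc7a11 to Slc3a2 mRNA varied more among the sgp53 lines than among the sgNTC lines. The log2 ratio of Slc7a11 to Slc3a2 counts was -3.54, -3.53 and -4.39 in sgp53 lines 1, 2 and 3, against -3.78, -3.88 and -3.85 in sgNTC lines 1, 2 and 3. The sgNTC lines lay close together, while sgp53 lines 1 and 2 were above them and line 3 below. As sgp53 lines 1 and 2 were nearly equal, the wider spread rests on sgp53 line 3. That is the library with the high Rn45s level, whose part in this ratio was not tested. The mean ratios were -3.82 ± 0.50 in sgp53 and -3.84 ± 0.05 in sgNTC (SD, n = 3 each).

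**Figure D2:**
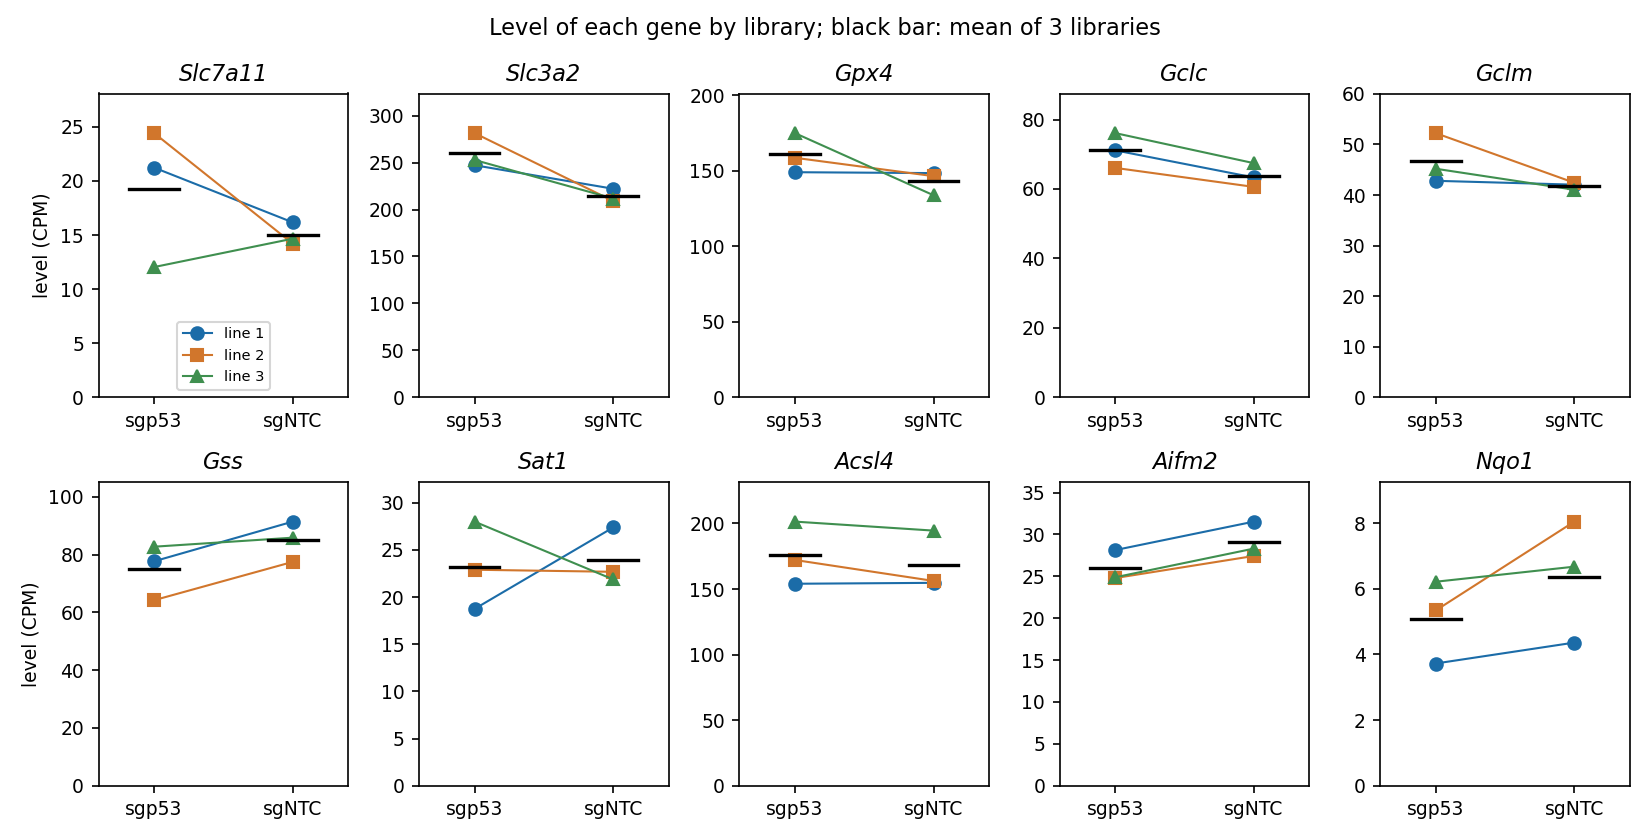
CPM of each of the 10 genes in every library, with sgp53 left of sgNTC, 1 point per line, joined across the guides, and a bar at the mean of 3 libraries. Slc3a2, Gpx4 and Gclm have no overlap between groups (3 of 10, beside 36.8% of all genes tested). The sgp53 points of Slc7a11 spread from 12.0 to 24.4 CPM around sgNTC points between 14.2 and 16.2 CPM.

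Glutathione is made in a pair of steps. Glutamate-cysteine ligase, a catalytic subunit (Gclc) with a modifier subunit (Gclm), carries out the rate-limiting step, and glutathione synthetase (Gss) adds glycine. Gclc was at 71.1, 66.1 and 76.1 CPM in sgp53 lines 1, 2 and 3, against 63.3, 60.6 and 67.4 CPM in the sgNTC lines in the same order. Every line had the higher value in sgp53, by 0.17, 0.12 and 0.17 on the log2 scale, but the lines themselves differed by as much, so the groups overlapped. The fitted log2 fold change was 0.16 (SE 0.07), with an edgeR adjusted p of 0.222. With the line as a block it was 0.16, with a 95% interval of 0.00011 to 0.31. The blocked edgeR fit gave an unadjusted p of 0.0499 and an adjusted p of 0.192.

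Gclm was at 42.8, 52.3 and 45.2 CPM in sgp53 lines 1, 2 and 3, against 42.1, 42.4 and 41.0 CPM in the sgNTC lines in the same order. The groups did not overlap, though sgp53 line 1 stood only just above the highest sgNTC library and line 2 stood apart from both other sgp53 libraries. The log2 fold change was 0.16 (SE 0.09), with an edgeR adjusted p of 0.268, and it was 0.08 without sgp53 line 2. The log2 ratio of Gclc to Gclm counts averaged 0.61 ± 0.23 in sgp53 and 0.61 ± 0.10 in sgNTC (SD, n = 3 each). In sgp53 it was 0.34 in line 2, below both other sgp53 lines (0.73 and 0.75), and the difference between the groups lay between -0.07 and 0.13 when single libraries were left out.

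Gss lay on the other side of 0. It was at 77.7, 64.2 and 82.7 CPM in sgp53 lines 1, 2 and 3, against 91.4, 77.5 and 85.8 CPM in sgNTC lines 1, 2 and 3. Each line had the lower value in sgp53, by least in line 3, and sgp53 lines 1 and 3 lay within the sgNTC range. The log2 fold change was -0.18 (SE 0.11), with an edgeR adjusted p of 0.323, and it was -0.08 without sgp53 line 2. In the GENCODE annotation 3 genes on the opposite strand overlap exons of Gss, namely Acss2 (6.68% of its exon bases), Gssos1 and Gssos2. Of 2 genes that overlap Gclm, Gm17494 lies on the opposite strand and the pseudogene Gm6061 on the same strand. Since no source states how strand was handled in the authors' counts, reads from the opposite-strand overlaps cannot be told apart. Strand would not separate those of Gm6061 in any case.

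Of the enzymes that remove lipid peroxides or block their spread, Gpx4, the selenoenzyme that reduces phospholipid hydroperoxides with glutathione, was at 149, 159 and 175 CPM in sgp53 lines 1, 2 and 3. In the sgNTC lines, in the same order, it was at 148, 146 and 134 CPM. The groups did not overlap, but line 1 was nearly equal in both and line 3 held most of the difference. The means were 161 ± 13.1 CPM in sgp53 and 143 ± 7.95 CPM in sgNTC (SD, n = 3 each), with a log2 fold change of 0.17 (SE 0.08) and an edgeR adjusted p of 0.202. Without line 3 in both groups the log2 fold change was 0.06. GENCODE annotates a transcribed processed pseudogene, Gpx4-ps2, that has no entry in the authors' counts. How reads matching both were counted is not stated.

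Aifm2 (FSP1) reduces coenzyme Q at the membrane and acts beside Gpx4 without glutathione. It was at 28.1, 24.8 and 24.9 CPM in sgp53 lines 1, 2 and 3, against 31.5, 27.4 and 28.3 CPM in the sgNTC lines in the same order. The within-line differences were the most even of the 10 genes, at -0.16, -0.15 and -0.19 on the log2 scale, yet sgp53 line 1 lay within the sgNTC range. The fitted log2 fold change was -0.17 (SE 0.09), with an edgeR adjusted p of 0.287, and it was -0.10 without sgNTC line 1. The gene H2afy2 overlaps 5.65% of the exon bases of Aifm2 on the opposite strand.

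Nqo1, an NRF2 target that reduces quinones, was the member with the fewest counts and the largest counting error. It was at 3.72, 5.34 and 6.21 CPM in sgp53 lines 1, 2 and 3, against 4.36, 8.04 and 6.67 CPM in the sgNTC lines in the same order. Line 1 was lowest in both groups, and the groups overlapped. The log2 fold change was -0.32 with a 95% interval of -1.02 to 0.38 and an edgeR adjusted p of 0.503, and it lay between -0.53 (without sgNTC line 1) and -0.11 (without sgNTC line 2) when single libraries were left out.

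Acsl4 and Sat1 act on the side that favours ferroptosis. Acsl4, which activates arachidonic and adrenic acid so that they enter membrane phospholipids, was at 154, 172 and 201 CPM in sgp53 lines 1, 2 and 3, against 155, 156 and 195 CPM in the sgNTC lines in the same order. Line 3 was highest in both groups. The means were 176 ± 23.9 CPM in sgp53 and 168 ± 22.6 CPM in sgNTC (SD, n = 3 each), with a log2 fold change of 0.06 (SE 0.13) and an edgeR adjusted p of 0.783. The sign turned, to -0.05, without sgp53 line 3. The log2 ratio of Acsl4 to Gpx4 counts was 0.05, 0.12 and 0.20 in sgp53 lines 1, 2 and 3, against 0.06, 0.09 and 0.54 in sgNTC lines 1, 2 and 3. Only line 3 showed a gap between the guides, with the higher ratio in sgNTC.

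Sat1 acetylates spermidine and spermine, the step that sends polyamines to breakdown or export. It was at 18.7, 22.9 and 28.0 CPM in sgp53 lines 1, 2 and 3, against 27.4, 22.7 and 21.9 CPM in the sgNTC lines in the same order. The sgp53 libraries held both the lowest and the highest of the 6 values. The means were 23.2 ± 4.64 CPM in sgp53 and 24.0 ± 2.97 CPM in sgNTC (SD, n = 3 each), a 0.968-fold difference whose 95% interval ran from 0.731 to 1.28, with an edgeR adjusted p of 0.875. The fitted log2 fold change of -0.05 turned to 0.08 without sgp53 line 1 and to 0.06 without sgNTC line 1.

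Within lines, 7 of the 10 genes had the same sign in all 3, against 52.2% of all genes tested: Slc3a2, Gpx4, Gclc and Gclm were higher in sgp53, and Gss, Aifm2 and Nqo1 were lower. Slc7a11 and Sat1, introduced above as p53-regulated, were both among the 3 genes whose sign differed between lines. Whether other members are p53 targets was not examined. The log2 difference of Slc7a11 was 0.39 in line 1, 0.78 in line 2 and -0.28 in line 3. That of Sat1 was -0.55 in line 1, 0.01 in line 2 and 0.36 in line 3. Slc7a11 was thus higher in sgp53 where Sat1 was lower (line 1) and lower where Sat1 was higher (line 3). In line 2, where Slc7a11 rose most, Sat1 was nearly equal, so the opposite signs did not hold in every line. The third gene was Acsl4, at -0.01, 0.14 and 0.05. The library of sgp53 line 3, the lowest of the 6 for Slc7a11 and the highest for Sat1, is the one with the high Rn45s level, and the part of that in these values was not tested.

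**Figure D3:**
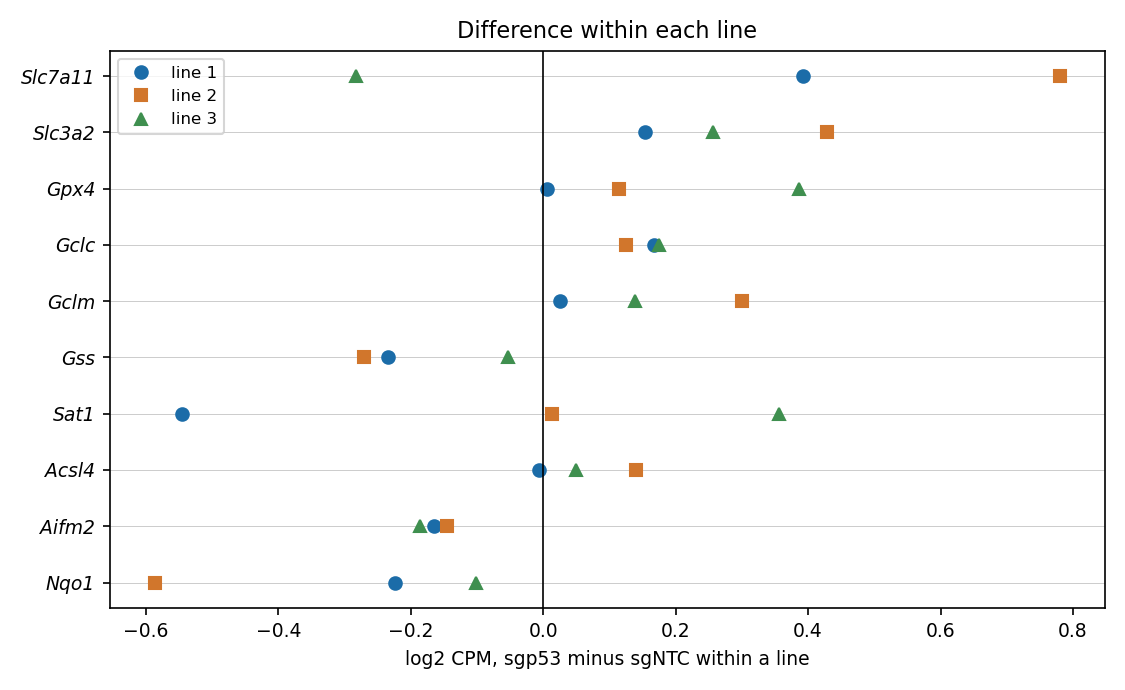
Log2 difference in CPM between sgp53 and sgNTC within each of the 3 lines, 1 point per line for each gene, with the vertical line at 0 marking equal levels. Aifm2 has nearly the same value in each line, while the points of Slc7a11 (-0.28 to 0.78) and Sat1 (-0.55 to 0.36) lie on both sides of 0.

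The lines were compared with each other in a fit that held the guide constant. At an edgeR adjusted p under 0.05, 0 of the 10 genes and 0 of all genes (0%) differed between lines. A DESeq2 likelihood ratio test called 67 of all genes. At an unadjusted p under 0.05 in edgeR the count was 1 of 10, against 3.53% of all genes. That member was Acsl4, 0.36 higher on the log2 scale in line 3 than in line 1, with an edgeR unadjusted p of 0.0129 and an adjusted p of 0.968. Nqo1 was 0.71 and 0.68 higher in lines 2 and 3 than in line 1, with an edgeR unadjusted p of 0.0545. Lines 2 and 3 share a number in their labels that line 1 lacks, and its meaning is not stated.

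Per kilobase of merged exon, the levels of the members spanned a wide range. Gpx4 had the highest mean over the 6 libraries, 88.0 CPM per kb (77.5 to 101), followed by Slc3a2 at 67.3 (59.3 to 79.8) and Acsl4 at 31.9 (28.5 to 37.3). Gclc was at 17.9 CPM per kb (16.1 to 20.2) and Gss at 13.5 (10.9 to 15.5). Sat1 at 8.51 (6.76 to 10.1), Gclm at 7.04 (6.52 to 8.31) and Aifm2 at 6.68 (6.02 to 7.65) had ranges over libraries that overlapped. The ranges of Gpx4 and Slc3a2 also overlapped, though Gpx4 was the higher in each of the 6 libraries. Nqo1 at 3.69 (2.40 to 5.18) and Slc7a11 at 1.23 CPM per kb (0.865 to 1.75) were lowest. The place of Slc7a11 depends on its merged exon length of 13.9 kb, which counts every annotated transcript.

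The rest of the pathway was read from 12 lists, 170 of whose 191 genes were tested. In edgeR 3 of the 170 were higher and 6 lower in sgp53 at an adjusted p under 0.05, 5.29% in all, beside the 6.45% of all genes given earlier. Their median log2 fold change was -0.02. At an unadjusted p under 0.05 the count was 62 (36.5%, beside 29.0% of all genes), and DESeq2 called 40 (23.5%, beside 18.1%) and limma-voom 8 (4.71%, beside 5.35%). Of the single lists, the share at an unadjusted p under 0.05 was highest for polyamine synthesis and breakdown, at 9 of 14 genes (64.3%), and for glutathione recycling, breakdown and export, at 7 of 12 (58.3%). Lists with 1 edgeR call had shares near the 6.45% of all genes. They were 9.09% for amino acid transporters, 8.33% for glutathione recycling, 4.76% for iron, 5.56% for other NRF2 targets and 7.14% for polyamines. In the same order DESeq2 called 3 (27.3%), 2 (16.7%), 5 (23.8%), 4 (22.2%) and 6 (42.9%), beside 18.1% of all genes.

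Around cystine uptake, Slc1a4, a neutral amino acid transporter, was the one edgeR call among 11 tested amino acid transporters. It rose to 44.3 ± 3.65 CPM in sgp53, against 27.9 ± 3.05 CPM in sgNTC (log2 fold change 0.67, edgeR adjusted p = 0.0240). Among 12 tested genes of glutathione recycling, breakdown and export the glutaredoxin Glrx3 fell to 19.8 ± 1.66 CPM in sgp53, against 28.2 ± 2.43 CPM in sgNTC (edgeR adjusted p = 0.0431, and 0.102 with the line as a block). None of 10 transsulfuration and methionine cycle genes, 17 glutathione transferases and 12 genes of glutathione peroxidases and selenoprotein synthesis was called by edgeR. Without adjustment 1, 3 and 3 genes of them had p under 0.05 (10.0%, 17.6% and 25.0%, beside 29.0% of all genes), and DESeq2 called 1, 1 and 2 (10.0%, 5.88% and 16.7%, beside 18.1%). Mat2a, Ahcy, Gstp1, Gpx1 and Sephs1, abundant genes of these lists, had log2 fold changes between -0.04 and 0.04, and Gsto1 one of 0.23. Other genes lay farther from 0. The full ranges were -0.95 to 0.15 for transsulfuration and the methionine cycle and -0.84 to 1.85 for the transferases. For peroxidases and selenoprotein synthesis the range was -0.59 to 1.21. Without 1 library, the edgeR adjusted p of Slc1a4 was 0.0376 without sgNTC line 1 and 0.0604 to 0.0718 without each of the others, and that of Glrx3 was 0.0533 to 0.135.

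On the lipid, quinone and iron side, edgeR called none of 22 membrane lipid genes and none of 17 genes of the coenzyme Q, tetrahydrobiopterin and vitamin K arms. Without adjustment 7 membrane lipid genes (31.8%) and 9 of the other list (52.9%) had p under 0.05, beside 29.0% of all genes. DESeq2 called 4 (18.2%) and 5 (29.4%), beside 18.1%. Under the block 1 membrane lipid gene passed in edgeR, Mboat1, a lysophospholipid acyltransferase, at 25.8 ± 5.43 CPM in sgp53 and 51.6 ± 14.6 CPM in sgNTC (adjusted p = 0.0444, and 0.0577 without the block). Scd2 and Scd1, the desaturases that make monounsaturated fatty acids, had log2 fold changes of 0.43 and 0.46 (edgeR adjusted p = 0.328 and 0.108). Slc11a2 (DMT1), the iron importer, was the one edgeR call among 21 iron genes. It rose to 65.7 ± 2.94 CPM in sgp53, against 54.2 ± 1.63 CPM in sgNTC (edgeR adjusted p = 0.0477, and 0.100 with the line as a block). Slc39a14 (ZIP14), another metal importer, was called in its place under the block, at 84.9 ± 17.3 CPM in sgp53 and 52.9 ± 13.7 CPM in sgNTC (edgeR adjusted p = 0.0444, and 0.118 without the block). Mboat1 and Slc39a14 were named after their values were seen. The edgeR adjusted p of Slc11a2 was 0.0683 to 0.146 when any single library was left out, 0.0590 with no low-count filter and 0.0663 scaled to library totals only, and limma-voom gave an adjusted p of 0.0570.

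Among the regulators, none of 10 genes of NRF2 and its regulators was called by edgeR, with 2 at an unadjusted p under 0.05 (20.0%, beside 29.0% of all genes) and 1 by DESeq2 (10.0%, beside 18.1%); Sqstm1 and Nfe2l1 had log2 fold changes of -0.06 and 0.15. Among 18 other NRF2 targets Ephx1, the microsomal epoxide hydrolase, fell to 5.66 ± 0.971 CPM in sgp53, against 32.7 ± 3.06 CPM in sgNTC (edgeR adjusted p = 0.00146). Among 14 polyamine genes Smox, which oxidizes spermine, fell to 27.3 ± 3.00 CPM in sgp53, against 44.4 ± 6.62 CPM in sgNTC (edgeR adjusted p = 0.0374, and 0.0936 with the line as a block). Without 1 library, the edgeR adjusted p of Smox was 0.0367 without sgNTC line 2 and 0.0586 to 0.127 without each of the others.

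Of 15 tested genes that link p53 to ferroptosis beyond the members, edgeR called 4 (26.7%, beside 6.45% of all genes). Of these, 3 fell (Cdkn1a, Mdm2 and Sesn2) and 1 rose (Ptgs2). At an edgeR unadjusted p under 0.05 the count was 8 (53.3%, beside 29.0%), and DESeq2 called 7 (46.7%, beside 18.1%). These genes were listed as p53-linked, so the shares called are no independent result. The calls of Cdkn1a and Mdm2 repeat the check of the guide. Sesn2, a stress-induced sestrin, was at 53.9 ± 6.20 CPM in sgp53 and 122 ± 26.5 CPM in sgNTC (edgeR adjusted p = 0.0198). Ptgs2, which encodes cyclooxygenase-2 and is often used as a transcript marker of ferroptosis, was at 129 ± 50.4 CPM in sgp53 and 32.7 ± 13.9 CPM in sgNTC (edgeR adjusted p = 0.0404, and 0.0562 with the line as a block) and it was chosen with its values in view. When single libraries were left out, the edgeR adjusted p of Sesn2 passed 0.05 without sgp53 line 1 (0.0807), sgp53 line 3 (0.0577) or sgNTC line 3 (0.0779). That of Ptgs2 was 0.0396 without sgNTC line 1 and 0.0647 to 0.136 without each of the others.

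**Figure D4:**
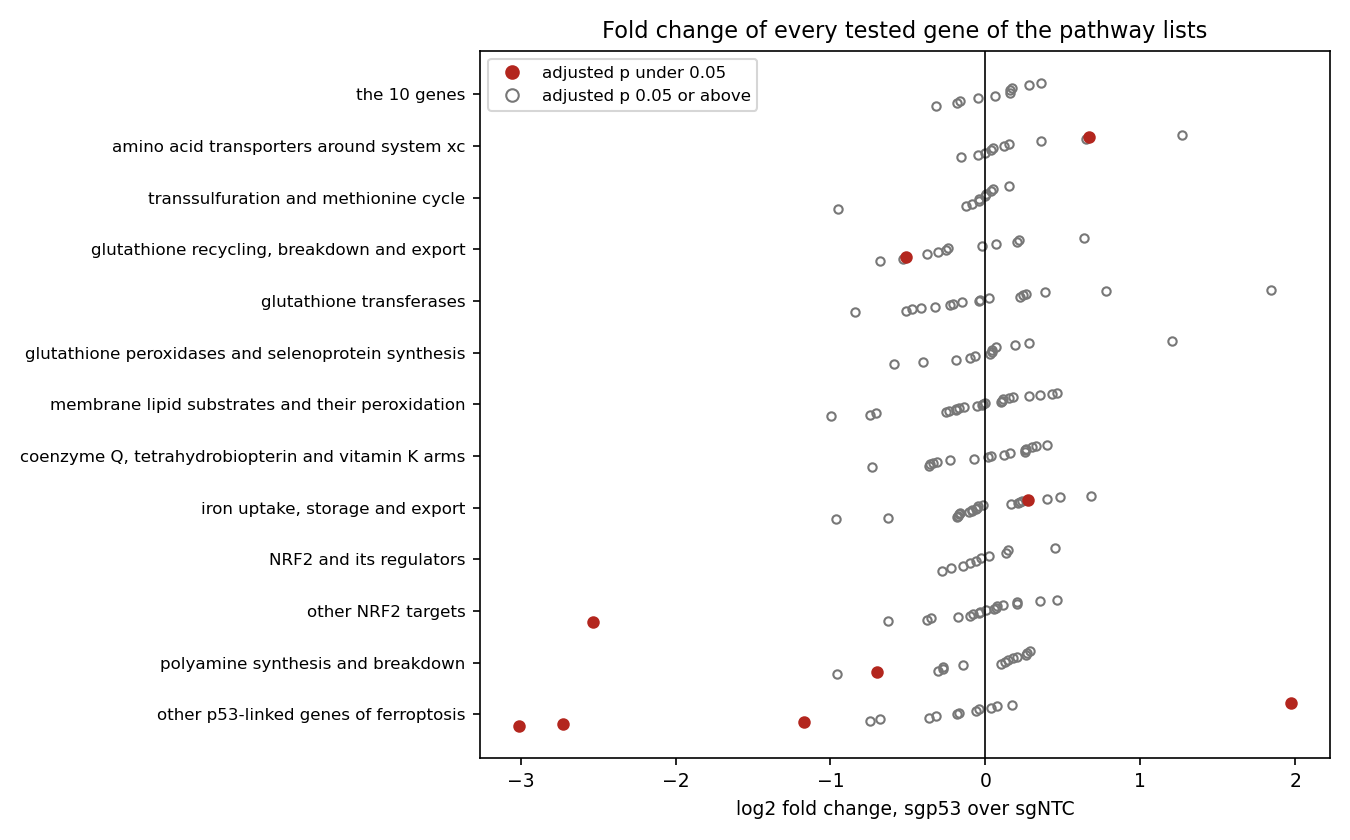
Log2 fold change of sgp53 over sgNTC for every tested gene of the 10 members and of the 12 pathway lists, 1 point per gene, with filled points for genes past an edgeR adjusted p under 0.05. The members lie between -0.32 and 0.36 with none filled, and the filled points of the lists are 3 above 0 and 6 below.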

How the data were processed

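RNA sequencing gave 6 libraries. Per the labels' protocols, each was prepared from 1 µg of RNA (integrity number above 8.0) with a TruSeq kit that keeps strand. The submitters' processing notes list the tools STAR, DESeq2 and CASAVA 1.8 and the build mm10 (GRCm38). The counter, its annotation and its use of strand are not given in these sources. The authors deposited raw read counts per gene symbol, with no normalization.

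The main test was edgeR's quasi-likelihood F-test (edgeR 4.0.16 in R 4.3.3; TMM scaling, filterByExpr, 4 residual degrees of freedom, Benjamini-Hochberg adjustment over 13044 genes, threshold 0.05). Adjusted p-values in the text are of this test unless another is named. CPM are counts over the TMM-scaled totals, and differences within a line use log2 CPM with a prior count of 2. Each SE was derived from the fitted coefficient and its F statistic. A permutation test of 3 against 3 libraries cannot give a p below 0.1, so none was used. DESeq2 1.42.0, limma-voom (limma 3.58.1), a replicate block, other scalings and filters, and fits without each library or line were run as alternatives. Exon lengths and overlaps came from GENCODE vM21, promoters from RefSeq.

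Libraries of a group differed by more than sampling noise (chi-square per degree of freedom 21.8 to 58.0), so each counted as 1 replicate. The labels give each line in both groups, so libraries are paired by line, although same-line libraries did not deviate together across genes (correlations 0.09, 0.0018 and -0.03). The main fit has no block. Blocked values stand beside the calls they change and are given for Gclc, and those of most other members are not printed.

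The members and lists were chosen with earlier results of these data known. The genes named are the members, Trp53, Cdkn1a and Mdm2, and for each list the called genes, at most 3 by smallest adjusted p, or else the 2 tested genes of highest mean CPM. Rn45s, Ptgs2, Mboat1, Slc39a14 and Hmox1 were named after their values were seen. Some genes that this rule names are not reported here.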

Additional observations from a re-analysis of the deposited data

How the results depend on the processing

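Across 190 fits of the 10 members under 19 alternatives, 1 was called, Slc3a2 by DESeq2 (log2 fold change 0.29, adjusted p = 0.00156), and 8 members kept their sign in all of them. Leaving out a library or line moved Sat1 between -0.26 and 0.19 and Acsl4 between -0.046 and 0.18. The count of members called was 0 in each of these fits and 1 in DESeq2. With the replicate block no member's call changed, while the count over all genes was 311 against 841. DESeq2 called 2367, and leaving out a library or line gave 19 to 700. In the pathway lists 9 genes were called, 40 by DESeq2, 7 with the block and 3 to 7 when a library or line was left out. With the block and without line 1, 2 or 3 in turn, 126, 0 and 13 of all genes and 4, 0 and 1 of the lists were called. A DESeq2 likelihood ratio test between lines called 67 genes, against 0 in edgeR with or without each library. The cause of these differences was not tested. Fits without a library or line had fewer samples, and the part of that was not tested either. Some uncalled genes changed sign, among them Gsto1, whose log2 fold change in the main fit was 0.23 (SE 0.31). Scaled to library totals only, the log2 fold change was -0.0051 for Ahcy, -0.013 for Gpx1 and -0.0029 for Sephs1. Without a library or line it ranged from -0.12 to 0.087 for Mat2a, -0.0049 to 0.078 for Ahcy, -0.28 to 0.69 for Gsto1, -0.14 to 0.089 for Gstp1, -0.014 to 0.11 for Gpx1 and -0.17 to 0.050 for Sqstm1. With the block and 1 line left out the sign also turned for Sat1 (0.19), Mat2a (0.088), Ahcy (-0.0056), Gsto1 (-0.27), Gstp1 (0.087), Gpx1 (-0.014) and Sqstm1 (0.046). The members' counting error was at most 9.58% (Nqo1).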

Other observations

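Hmox1, the heme oxygenase that frees iron from heme and an NRF2 target, was at 41.5 ± 4.66 CPM in sgp53 and 64.0 ± 10.5 CPM in sgNTC (SD, n = 3 each). Its log2 fold change was -0.63, with an edgeR adjusted p of 0.0542 and a DESeq2 adjusted p of 0.00187, so the tools placed it on different sides of the threshold. The difference was negative in all 3 lines, at -0.99, -0.66 and -0.20, and smallest in line 3. Hmox1 was chosen after its values were seen.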
